A study of Mus musculus with 102 samples.

Results

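MHC class I and class II antigen presentation was followed through 10 genes of lumbar spinal microglia, chosen by name from 18856 genes of the deposited normalized table and matched by gene ID to the raw counts of 53715 genes. The 5 class I genes encode the heavy chains H2-K1 and H2-D1, the shared light chain B2m, the peptide pump subunit Tap1 and the loading chaperone Tapbp (tapasin). The 5 class II genes encode the alpha chain H2-Aa, the beta chains H2-Ab1 and H2-Eb1, the invariant chain Cd74 and the class II transactivator Ciita. All 10 passed the filter on low counts.

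Class I molecules are made by nearly all nucleated cells and show peptides of the cell's own proteins to CD8+ T cells. TAP moves proteasome-made peptides into the endoplasmic reticulum, where tapasin holds the heavy chain and B2m next to it until a peptide binds. Class II molecules are made by professional antigen-presenting cells and show peptides of engulfed proteins to CD4+ T cells. CD74 fills their groove on the way to the endosome, and CIITA switches on the class II genes and Cd74 together. Microglia at rest carry class I and little class II, while border macrophages and monocyte-derived cells of the nervous system can carry much class II.

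RNA was measured by RNA-seq in microglia sorted by flow cytometry from lumbar spinal cord. ABC-imKO mice (Abca1fl/fl Abcg1fl/fl Cx3cr1-CreERT2) carry floxed genes for the cholesterol exporters ABCA1 and ABCG1 and a drug-inducible Cre recombinase expressed from Cx3cr1, a gene that other macrophages and monocytes also use. WT mice are labelled WT only, and the labels name no inducing drug and no age. In each genotype 1 group received intraperitoneal cisplatin, a platinum drug that causes nerve damage and pain, on days 1 and 3 and an intrathecal injection of AIBP (apolipoprotein A-I binding protein) on day 7, 1 group received cisplatin in the same way with intrathecal saline on day 7, and 1 group was naive, with no treatment. The 6 groups hold 3 numbered samples each, except WT cisplatin AIBP with 2 (numbers 7 and 9). Each sample is the sum of 3 technical replicate libraries, and the labels do not say whether it is 1 mouse or a pool, and p-values therefore speak only of how these samples scatter. Naive mice had no intrathecal injection, so comparisons with naive hold that injection too.

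Depth was 45.1 to 76.6 M counts per sample (median 63.1 M). Cx3cr1, whose locus carries the Cre, stood at 1718 to 2771 CPM (counts scaled to a common library size, TMM-adjusted) in ABC-imKO cisplatin saline against 5531 to 7103 CPM in WT cisplatin saline, and at 3397 to 4871 CPM in ABC-imKO naive against 9349 to 10656 CPM in WT naive. In the 3 samples labelled ABC-imKO cisplatin AIBP it stood at 5551, 5249.6 and 7078 CPM, against 7297 and 7902 CPM in WT cisplatin AIBP, so these 3 did not show the low Cx3cr1 of the other ABC-imKO groups and are named by their label throughout. Whole-gene counts of Abca1 and Abcg1 do not measure the floxed deletion. The microglial marker Tmem119 was at 1620.2 CPM or more in all samples.

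Per kilobase of exon, the class I transcripts B2m, H2-D1, H2-K1 and Tapbp stood above all class II transcripts in WT naive microglia, and Tap1 stood below Cd74. B2m had 1013 ± 92.8 CPM per kb, H2-D1 821 ± 77.8, H2-K1 405 ± 30.5 and Tapbp 133 ± 11.3 (SD, n = 3). Cd74 followed with 65.6 ± 16.9 CPM per kb, then Tap1 with 12.3 ± 2.65, H2-Ab1 with 11.3 ± 6.77 and H2-Eb1 with 1.40 ± 0.634. H2-Aa had 0.0341 ± 0.0504 CPM per kb, and Ciita was last with 1 count in the 3 samples together. Tap1 and H2-Ab1 are the neighbours in this order whose sample ranges overlapped. In WT cisplatin saline Cd74 had 356 ± 231 CPM per kb, above H2-K1 at 254 ± 38.5, but its lowest sample (89.5) lay below every H2-K1 value. The order B2m, H2-D1 held in all 6 groups by group mean.

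After cisplatin and saline H2-K1 fell in both genotypes, H2-D1 fell in ABC-imKO, and B2m, Tapbp and Tap1 did not pass the test in either. H2-K1, the classical class I heavy chain gene at the K end of the mouse MHC (ENSMUSG00000061232, GRCm38 chromosome 17, 33996017 to 34000347, minus strand), had 821, 616 and 801 CPM in WT cisplatin saline samples 4, 5 and 6, against 1123, 1291 and 1153 CPM in WT naive samples 1, 2 and 3. All 3 treated samples lay below all 3 naive ones, with means of 746 ± 113 CPM in WT cisplatin saline and 1189 ± 89.7 CPM in WT naive (SD, n = 3 each). The log2 fold change was -0.67 ± 0.17 (SE), adjusted p = 0.0442 by edgeR's quasi-likelihood test with Benjamini-Hochberg adjustment over 20461 genes. In ABC-imKO mice it stood at 880.3, 819 and 710.4 CPM in the cisplatin saline samples 4, 5 and 6 against 1076, 1528 and 1580.0 CPM in the naive samples 1, 2 and 3 (-0.80 ± 0.17, adjusted p = 0.0143 by edgeR).

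H2-D1, the heavy chain gene at the D end (ENSMUSG00000073411, chromosome 17, 35262730 to 35267499, plus strand), stood at 2116, 1756 and 1412 CPM in ABC-imKO cisplatin saline samples 4, 5 and 6 against 2403, 2586 and 2843 CPM in ABC-imKO naive samples 1, 2 and 3. It fell by 0.57 on the log2 scale (SE 0.15, adjusted p = 0.0429 by edgeR), with the groups apart. In WT it stood at 1462, 1435 and 1712 CPM after cisplatin and saline against 2059.9, 2339.8 and 1951 CPM in naive samples. These WT groups did not overlap either, and the difference of -0.46 ± 0.15 did not pass (adjusted p = 0.124).

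The regions before these genes share much sequence. They are shown, with that of B2m, because heavy and light chain are made together, as the 250 bases before the transcription start (RefSeq, GRCm38.p6, 5′ to 3′ on the gene's strand): chr17:34000348-34000597 minus for H2-K1 (the first of 2 annotated starts), chr17:35262844-35263093 plus for H2-D1 and chr2:122147437-122147686 plus for B2m. Capitals mark GGGATTCCC (a kappa B element of the class I enhancer), AAGTGAAA (a core of interferon-response elements) and ATTGG (the CCAAT box), each on either strand. A match is a match of letters only. The H2-D1 stretch lies inside the gene span given above, which begins at 35262730, because RefSeq places the start of H2-D1 further downstream.
H2-K1: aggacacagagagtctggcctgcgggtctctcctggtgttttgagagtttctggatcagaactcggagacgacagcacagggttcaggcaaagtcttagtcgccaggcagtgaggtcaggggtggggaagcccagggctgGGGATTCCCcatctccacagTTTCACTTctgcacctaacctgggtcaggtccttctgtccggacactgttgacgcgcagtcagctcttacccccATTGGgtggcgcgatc
H2-D1: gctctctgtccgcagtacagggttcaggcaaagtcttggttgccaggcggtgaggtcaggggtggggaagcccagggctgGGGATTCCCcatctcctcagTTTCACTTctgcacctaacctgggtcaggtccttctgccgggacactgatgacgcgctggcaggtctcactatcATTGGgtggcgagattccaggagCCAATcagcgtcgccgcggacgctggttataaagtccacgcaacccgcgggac
B2m: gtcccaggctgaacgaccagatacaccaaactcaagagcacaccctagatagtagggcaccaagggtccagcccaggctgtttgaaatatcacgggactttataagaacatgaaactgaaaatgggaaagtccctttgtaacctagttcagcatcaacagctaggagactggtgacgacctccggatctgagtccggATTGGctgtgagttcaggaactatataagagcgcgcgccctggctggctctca
Over 177 aligned bases with no gap, 161 were identical between H2-K1 and H2-D1 (91.0%). Both held GGGATTCCC, found in 99 of all 32851 annotated promoters of this length (0.301%), and AAGTGAAA read on the other strand, found in 1.36%. B2m held neither. All 7 of the 10 genes with an entry held ATTGG or CCAAT, as did 33.8% of all promoters.

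B2m (ENSMUSG00000060802, chromosome 2, 122147686 to 122153083, plus strand) stood at 967, 867 and 686 CPM in ABC-imKO cisplatin saline samples 4, 5 and 6 against 1385, 1706 and 1139 CPM in ABC-imKO naive samples 1, 2 and 3. In WT it stood at 752, 478 and 774 CPM after cisplatin and saline against 865, 954 and 795 CPM in naive samples. The treated samples were the lower ones in both genotypes, without overlap, and neither difference passed the test (ABC-imKO -0.75 ± 0.22, adjusted p = 0.0763; WT -0.38 ± 0.22, adjusted p = 0.374).

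Tapbp (ENSMUSG00000024308, chromosome 17, 33915899 to 33929292, plus strand) stood at 413, 316 and 346 CPM in ABC-imKO cisplatin saline samples against 406, 609 and 557 CPM in ABC-imKO naive samples, where sample 4 overlapped naive sample 1. In WT it stood at 394, 282 and 309.5 CPM after cisplatin and saline against 438, 519 and 493 CPM in naive samples, without overlap. Neither difference passed (ABC-imKO -0.55 ± 0.18, adjusted p = 0.0991; WT -0.56 ± 0.18, adjusted p = 0.116).

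Tap1 (ENSMUSG00000037321, chromosome 17, 34187553 to 34197225, plus strand) stood at 62.9, 79.1 and 71.1 CPM in ABC-imKO cisplatin saline samples against 111, 98.1 and 79.6 CPM in ABC-imKO naive samples, and at 49.3, 73.7 and 55.9 CPM in WT cisplatin saline samples against 50.4, 76.3 and 74.7 CPM in WT naive samples. The WT groups overlapped and the ABC-imKO groups nearly touched (ABC-imKO -0.44 ± 0.29, adjusted p = 0.453; WT -0.17 ± 0.29, adjusted p = 0.815). Tap1 also varied most of the class I genes between technical replicates of a sample, with a pooled SD of 0.61 in log2 CPM, against 0.18 for H2-K1 and 0.22 for H2-D1.

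**Figure D1:**
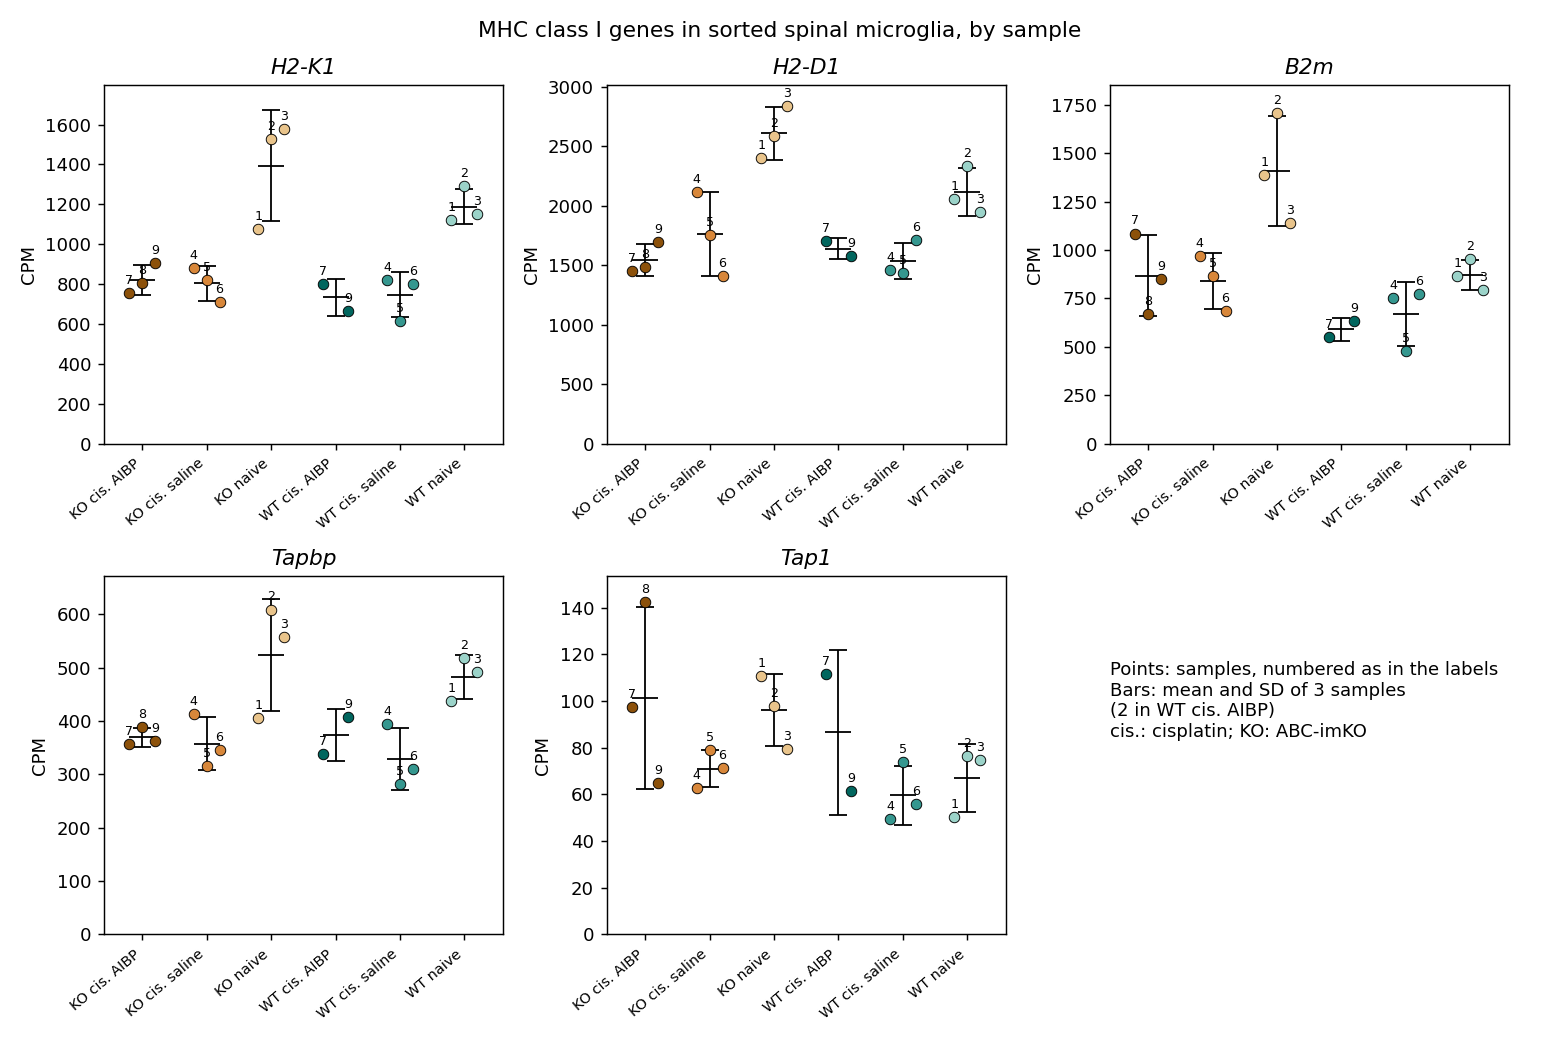
CPM (y axes, linear, from 0) of the 5 class I genes in each of the 17 samples (points, numbered), by group on the x axis, with mean and SD as bars. For H2-K1 every naive sample lies at 1076 CPM or above and every cisplatin sample of either genotype at 904 CPM or below.

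By count, 2 of 5 class I genes fell in ABC-imKO (H2-K1 and H2-D1), where 1.99% of all genes tested fell and 4.41% changed in either direction. In WT 1 of 5 fell (H2-K1), where 0.953% of all genes tested fell and 2.91% changed in either direction. The median log2 fold change of the 5 genes was -0.57 in ABC-imKO against -0.04 for all genes tested, and -0.46 in WT against -0.01 for all genes tested. Groups stood apart, with all treated samples lower, for 4 of 5 class I genes in each genotype, as they did for 11.5% of all genes tested in ABC-imKO and 10.7% in WT. None of the 5 genes passed the interaction term, the test of a difference between the genotypes' fold changes (ABC-imKO minus WT between -0.36 and 0.01, smallest adjusted p = 0.882), which does not show them equal. Summed CPM of the 10 microglial markers was also lower after cisplatin, at 20294 to 23932 against 40519 to 52400.2 in ABC-imKO naive and at 29268 to 37120.1 against 51426 to 59048 in WT naive. Its part in the class I result was not tested, and in sorted bulk RNA fewer cells of a type cannot be told apart from less RNA per cell.

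The calls were near the threshold. The WT call of H2-K1 held with WT cisplatin saline 4, ABC-imKO naive 1 or 3, or the sample labelled ABC-imKO cisplatin AIBP 7 left out and was lost with each of the other 13 samples left out (adjusted p 0.0507 to 0.216 by edgeR). Without WT cisplatin saline 5 and 6 together, a pair chosen with their high values known, it was -0.48. Only sample 4 then stands for that group and is assumed to vary like the other groups, so fold changes without the pair are given as values with no test. The ABC-imKO call of H2-K1 was lost without cisplatin saline 5 (adjusted p = 0.0561), cisplatin saline 6 (0.0542) or naive 2 (0.0708), and that of H2-D1 with any sample left out but WT cisplatin saline 4 or 5, ABC-imKO cisplatin saline 4 or those labelled ABC-imKO cisplatin AIBP 7 or 9 (12 fits, adjusted p 0.0505 to 0.136). Every fold change in these fits was negative. By DESeq2 H2-D1 (adjusted p = 0.0456) and Tapbp (0.0345) also passed in WT, and B2m (0.0114) and Tapbp (0.0218) in ABC-imKO.

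H2-Aa (ENSMUSG00000036594, chromosome 17, 34282744 to 34287823, minus strand) and H2-Eb1 (ENSMUSG00000060586, chromosome 17, 34305867 to 34316674, plus strand) encode chains of the I-A and I-E molecules. The 250 bases before their starts are shown because both genes are read through the same set of promoter boxes (RefSeq, GRCm38.p6; chr17:34287824-34288073 minus and chr17:34305617-34305866 plus). Capitals mark ATTGG or CCAAT, the letters of the Y box, and TGACGTCA, the letters of a cAMP response element as in the X box.
H2-Aa: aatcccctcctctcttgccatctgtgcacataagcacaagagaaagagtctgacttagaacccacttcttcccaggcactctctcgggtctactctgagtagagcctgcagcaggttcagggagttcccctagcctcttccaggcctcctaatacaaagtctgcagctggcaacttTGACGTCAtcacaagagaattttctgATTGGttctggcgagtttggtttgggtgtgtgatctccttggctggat
H2-Eb1: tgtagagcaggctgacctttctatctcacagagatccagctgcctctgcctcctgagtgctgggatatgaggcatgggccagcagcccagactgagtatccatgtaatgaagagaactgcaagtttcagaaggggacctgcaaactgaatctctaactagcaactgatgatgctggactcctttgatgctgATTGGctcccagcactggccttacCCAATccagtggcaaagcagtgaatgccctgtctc
TGACGTCA stood in H2-Aa and not in H2-Eb1, and in 1.55% of all promoters of this length.

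Cd74 rose in WT cisplatin saline, with its high values in samples 5 and 6, and H2-Aa, H2-Ab1 and H2-Eb1, highest in the same samples, did not pass the test. Cd74, the invariant chain gene (ENSMUSG00000024610, chromosome 18, 60803848 to 60812652, plus strand), had 150.2, 853 and 789 CPM in WT cisplatin saline samples 4, 5 and 6 against 99.9, 142 and 88.5 CPM in WT naive samples 1, 2 and 3. Samples 5 and 6 were the highest of all 17, while sample 4 lay just above the highest naive sample, so the groups did not overlap, as for 12% of all genes tested in that direction. The mean was 597 ± 389 CPM after cisplatin and saline and 110.2 ± 28.3 CPM in naive samples (SD, n = 3 each; log2 fold change 2.44 ± 0.51, adjusted p = 0.0191 by edgeR). The call was lost without WT cisplatin saline 5 (2.09, adjusted p = 0.095), WT cisplatin saline 6 (2.19, 0.0711), WT naive 1 (2.37, 0.0883) or WT naive 3 (2.30, 0.0774), and with sample 4 as the only one of its group the value was 0.50.

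H2-Aa had 0.0571, 52.4 and 78.1 CPM in WT cisplatin saline samples 4, 5 and 6 (3, 3260 and 4776 counts) against 0.0202, 0.0178 and 0.35 CPM in WT naive samples 1, 2 and 3 (1, 1 and 22 counts). Sample 4 lay inside the naive range. The log2 fold change of 8.33 ± 2.39 did not pass (adjusted p = 0.0803), passed without sample 4 (8.91, adjusted p = 0.0265) and was -1.12 with sample 4 alone. It also passed by DESeq2 (8.41, adjusted p = 0.000112) and by edgeR with no filter (8.33, 0.0151). By edgeR with genes at a mean of 10 CPM or more it passed too (8.37, 0.0153). H2-Aa reached that mean only through WT cisplatin saline 5 and 6 and WT cisplatin AIBP 7. Every other sample had 7.72 CPM or less, so this pass is no separate support. By limma with libraries as units it passed as well (6.33, adjusted p = 0.00759). That fit counts the libraries of a sample nearly as separate samples (correlation 0.0886).

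H2-Ab1, the I-A beta chain gene (ENSMUSG00000073421, chromosome 17, 34257689 to 34269419, plus strand), had 19, 155 and 186 CPM in WT cisplatin saline samples 4, 5 and 6 against 9.68, 34.3 and 43.3 CPM in WT naive samples. The log2 fold change was 2.05 ± 0.77 (adjusted p = 0.19), passed without sample 4 (2.55, adjusted p = 0.0462) and was -0.56 with sample 4 alone. H2-Eb1 had 2.04, 31.7 and 35.6 CPM in WT cisplatin saline samples against 3.82, 2.94 and 1.39 CPM in WT naive samples (3.09 ± 1.78, adjusted p = 0.374; -0.36 with sample 4 alone). For both genes samples 5 and 6 were high and sample 4 was within the naive range.

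Ciita (ENSMUSG00000022504, chromosome 16, 10480059 to 10528418, plus strand) was hardly detected. It had 0, 106 and 0 counts in WT cisplatin saline samples 4, 5 and 6 against 0, 0 and 1 in WT naive samples, and 0, 102 and 0 in ABC-imKO cisplatin saline samples against 1, 1 and 36 in ABC-imKO naive samples. WT cisplatin AIBP samples 7 and 9 had 56 and 0 counts, and the samples labelled ABC-imKO cisplatin AIBP had 0. Of its 303 counts, all but 3 came from 5 of the 51 libraries, so no fold change is given.

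In ABC-imKO mice no class II gene passed the test after cisplatin and saline. Cd74 stood at 261, 385 and 245 CPM in ABC-imKO cisplatin saline samples 4, 5 and 6 against 162, 98.0 and 136 CPM in ABC-imKO naive samples 1, 2 and 3. The groups did not overlap, as for 12% of all genes tested in that direction, and the difference did not pass (1.17 ± 0.49, adjusted p = 0.217; 0.0452 without WT cisplatin saline 4). H2-Aa stood at 0.171, 5.74 and 1.37 CPM against 7.72, 2.3 and 5.13 CPM (-1.06 ± 1.73, adjusted p = 0.816), H2-Ab1 at 74.7, 50.7 and 23.4 CPM against 64.6, 20.5 and 34 CPM (0.32 ± 0.74, adjusted p = 0.882) and H2-Eb1 at 1.56, 4.92 and 0.0752 CPM against 0.155, 5.68 and 5.99 CPM (-0.85 ± 1.66, adjusted p = 0.855), each in ABC-imKO cisplatin saline against ABC-imKO naive samples. These 3 pairs of groups overlapped.

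**Figure D2:**
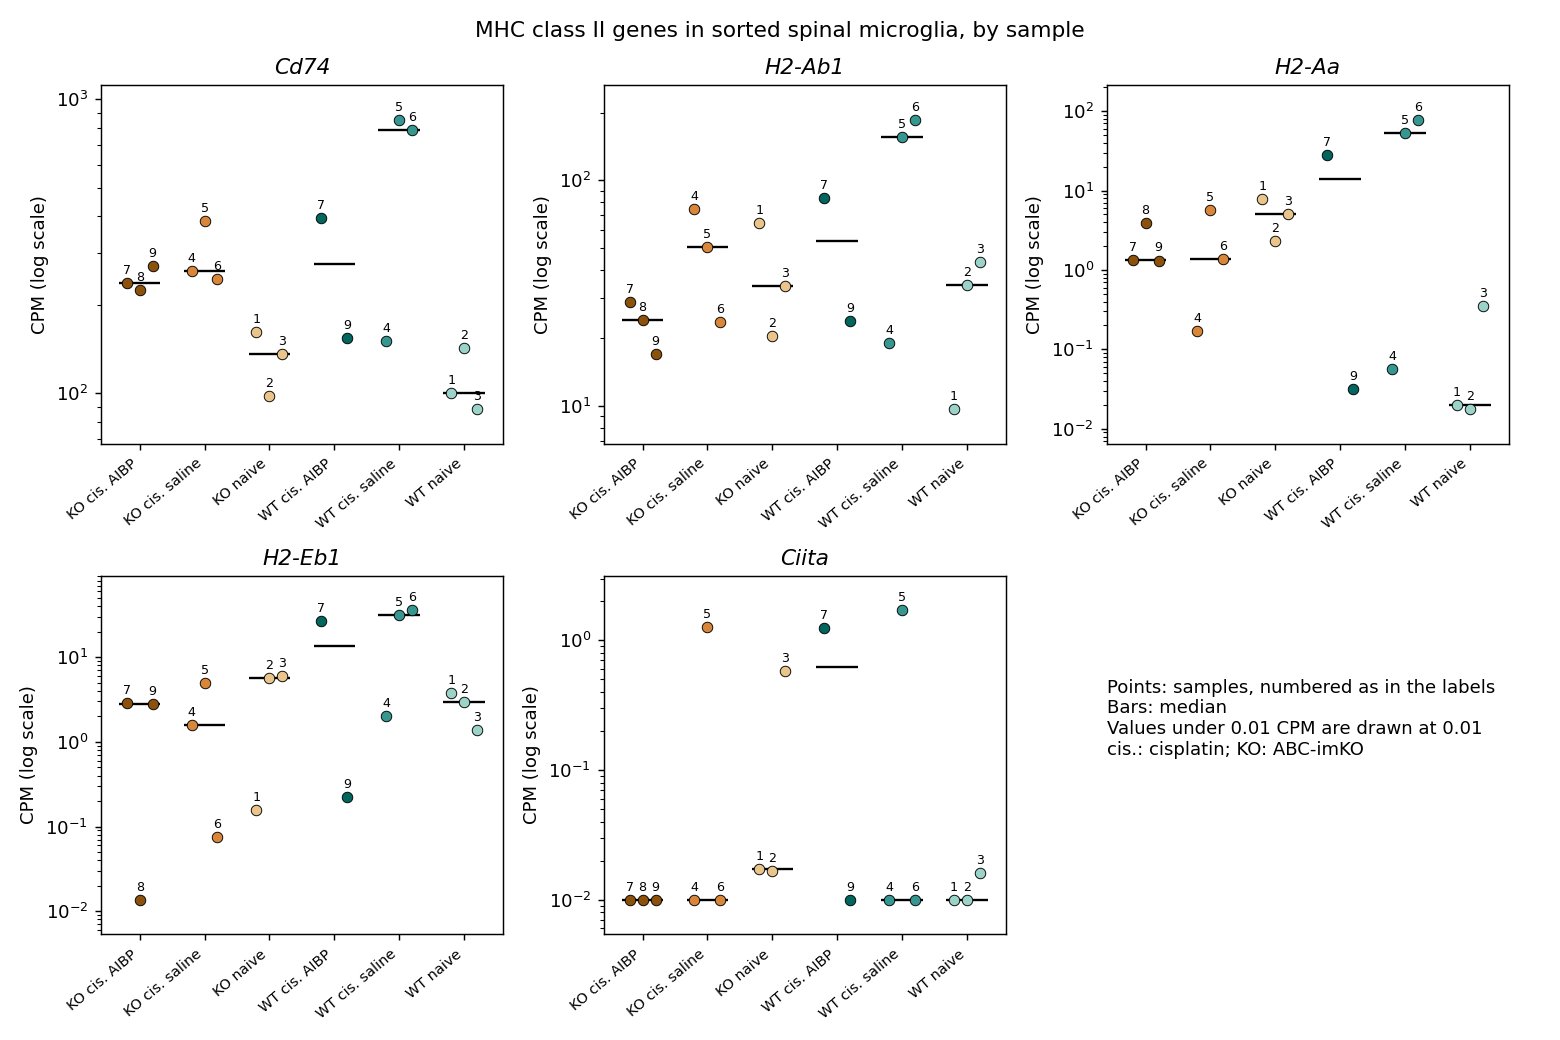
CPM (y axes, log scale) of the 5 class II genes in each of the 17 samples (points, numbered), by group on the x axis, with the median as a bar and values under 0.01 CPM drawn at 0.01. WT cisplatin saline 5 and 6 and WT cisplatin AIBP 7 lie highest for H2-Aa, at 52.4, 78.1 and 27.9 CPM.

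By count, 0 of 5 class II genes rose in ABC-imKO cisplatin saline, where 2.42% of all genes tested rose, and 1 of 5 (Cd74) in WT cisplatin saline, where 1.95% rose. No class II gene passed the test of the difference between the genotypes' cisplatin responses (Cd74 -1.27 ± 0.68, adjusted p = 0.707; H2-Aa -9.39 ± 2.86, adjusted p = 0.607). By DESeq2 H2-Aa passed that test (adjusted p = 0.0199), and without WT cisplatin saline 5 and 6 the 2 values were 0.70 and 0.09. Across all genes 0 passed (0.0% of 20461) by edgeR, with 1561 at an unadjusted p under 0.05 and 185 by DESeq2.

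**Figure D3:**
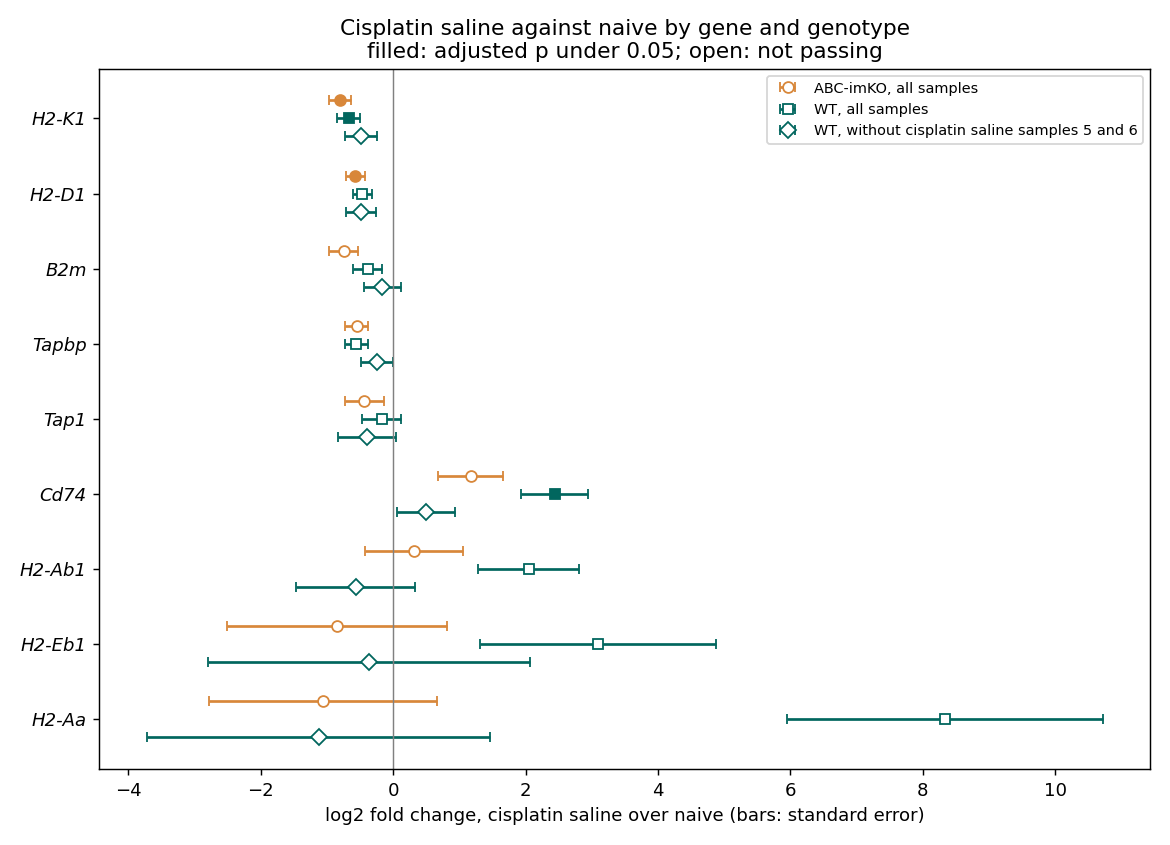
Log2 fold change of cisplatin saline over naive (x axis, bars are SE) for 9 of the 10 genes (y axis) in ABC-imKO, in WT, and in WT without cisplatin saline samples 5 and 6, with filled symbols where the adjusted p is under 0.05. The class I values lie below 0 in all 3 fits, and the WT class II values move from 2.05 to 8.33 with all samples to -1.12 to 0.50 without the pair. The fit without the pair has 1 treated sample in WT, so its symbols show values with no test.

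Markers of other cells stood in the same samples. Ccr2, a chemokine receptor of inflammatory monocytes, had 0.324, 95.3 and 62.8 CPM in WT cisplatin saline samples 4, 5 and 6 against 0.182 to 3.42 CPM in WT naive samples and 0.227 to 6.74 CPM in ABC-imKO cisplatin saline samples. The 8 border macrophage markers summed to 0.667, 150.3 and 98.4 CPM in WT cisplatin saline samples 4, 5 and 6 against 0.142 to 4.63 CPM in WT naive samples. Of the 8, 5 were at 1 CPM or more in at least 1 treated sample, with Cd163 under 1 CPM and Lyve1 and Cd209f at 0. Much of the sum was F13a1, with 51.8 to 102 CPM in the libraries of sample 5 and 22.3 to 69.8 CPM in those of sample 6. The 8 monocyte markers summed to 238, 1063 and 731 CPM in WT cisplatin saline samples 4, 5 and 6 against 2.95 to 62.6 CPM in WT naive. All 8 were at 1 CPM or more in a treated sample.

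ABC-imKO cisplatin saline samples had as high a monocyte sum, 763 to 1215 CPM against 7.67 to 21.3 CPM in ABC-imKO naive, most of it Fn1 at 639 to 1088 CPM. As in WT cisplatin saline, all 8 monocyte markers were at 1 CPM or more in at least 1 of these samples. The border macrophage sum of the ABC-imKO cisplatin saline samples was 21.6 to 35.6 CPM against 6.03 to 8.94 CPM in ABC-imKO naive. F13a1 had 0.473 to 51.1 CPM in the libraries of ABC-imKO cisplatin saline and 0 to 19.3 CPM in those of ABC-imKO naive. WT cisplatin AIBP 7 had 27.9 CPM of H2-Aa with a border macrophage sum of 5.41 CPM and 6.41 CPM of Ccr2. Its monocyte sum was 273 CPM. WT cisplatin AIBP 9 had 0.0316 CPM of H2-Aa with a border macrophage sum of 30.0 CPM and a monocyte sum of 188 CPM. Ccr2 had 16.9, 0.044 and 13.9 CPM in the libraries of that sample. Dendritic cell markers summed to 55.9 to 95.8 CPM in WT cisplatin saline against 48.6 to 72.9 CPM in WT naive, with Ccr7 at 0. The 7 B cell markers summed to 592 to 1037 CPM in WT cisplatin saline against 1295 to 1585 CPM in WT naive, with 3 of 7 at 1 CPM or more in every group, most of it Ighm, and with Ms4a1 at 0. The part of these cells in the class II result was not tested.

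Class II counts were also uneven between technical replicates of a sample. H2-Aa reached 1 CPM in all 3 libraries of WT cisplatin saline 5 (14.3, 10.6 and 113 CPM) and 6 (32.8, 103 and 82.7 CPM) and in 2 of 3 libraries of WT cisplatin AIBP 7 (53.3, 0.666 and 25.5 CPM). It reached 1 CPM in 1 library of each of 8 other samples, all ABC-imKO, and in none of the remaining 6. Over all 17 samples a median of 91.9% of a sample's H2-Aa, summed as CPM, lay in its highest library, against 42.9% for Cd74 and 35.7% for H2-K1. In the 3 ABC-imKO naive samples that library was technical replicate 1 each time, with 22.7, 6.77 and 14.6 CPM.

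**Figure D4:**
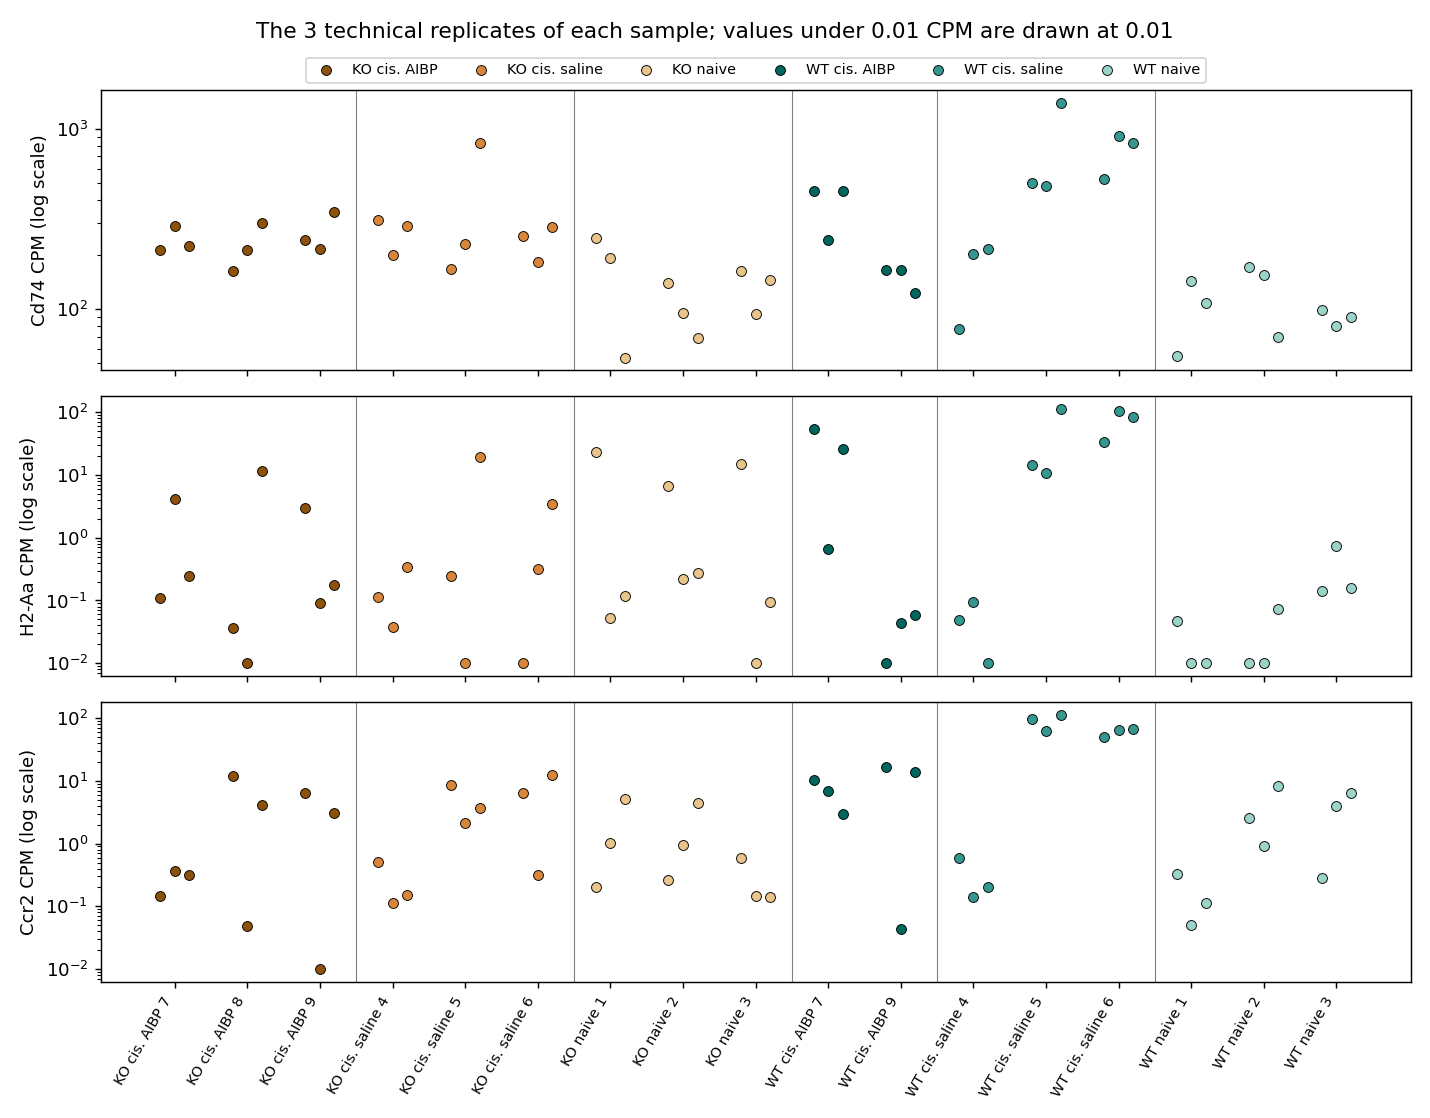
CPM (y axes, log scale) of Cd74, H2-Aa and Ccr2 in the 3 technical replicate libraries (points) of each sample (x axis), with values under 0.01 CPM drawn at 0.01. All 3 libraries of WT cisplatin saline 5 and of 6 lie at 10.6 CPM or more for H2-Aa, whereas ABC-imKO samples have 1 high library or none.

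No member passed the test of AIBP against saline after cisplatin. In WT, Cd74 stood at 396 and 155 CPM in cisplatin AIBP samples 7 and 9 against 150.2, 853 and 789 CPM in cisplatin saline samples 4, 5 and 6 (-1.12 ± 0.56, adjusted p = 0.996), a difference that turned to 0.86 without samples 5 and 6. The ABC-imKO value was -0.29 ± 0.48 (adjusted p = 0.998), with 237, 224 and 271 CPM in the samples labelled ABC-imKO cisplatin AIBP. Within each genotype Tap1 had its highest mean in the AIBP group, with 97.3, 142 and 64.7 CPM in the samples labelled ABC-imKO cisplatin AIBP against 62.9, 79.1 and 71.1 CPM in ABC-imKO cisplatin saline (0.51 ± 0.29, adjusted p = 0.721) and 112 and 61.5 CPM in WT cisplatin AIBP against 49.3, 73.7 and 55.9 CPM in WT cisplatin saline (0.54 ± 0.32, adjusted p = 0.996).
All 10 pairs of groups overlapped in both genotypes, whereas 4.17% of all genes stood wholly higher and 4.43% wholly lower in ABC-imKO, and 9.1% and 9.14% in WT. Across all genes 0 (0.0%) passed in WT, with 759 at an unadjusted p under 0.05 and 104 by DESeq2, and 0.00977% passed in ABC-imKO. No member passed the test of a difference in AIBP effect between the genotypes, which does not show the effects equal (0.0% of genes passed by edgeR, with 1285 at an unadjusted p under 0.05 and 132 by DESeq2; Cd74 0.83 ± 0.72, adjusted p = 0.977).

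Against naive, H2-K1 and H2-D1 fell in the samples labelled ABC-imKO cisplatin AIBP and did not pass in WT cisplatin AIBP. The naive samples are shared with the comparisons above. In the samples labelled ABC-imKO cisplatin AIBP, H2-K1 stood at 756, 806 and 904 CPM against 1076, 1528 and 1580.0 CPM in ABC-imKO naive (-0.76 ± 0.17, adjusted p = 0.0256), and H2-D1 at 1455, 1486 and 1697 CPM against 2403, 2586 and 2843 CPM (-0.76 ± 0.15, adjusted p = 0.0147 by edgeR). These were 2 of 10 members, where 0.87% of all genes fell, 1.81% rose and 2.68% changed in all, and 4 of 5 class I genes had all treated samples below all naive ones, as 9.77% of genes did. Both calls were lost without the sample labelled ABC-imKO cisplatin AIBP 8 (0.118 and 0.0805) or ABC-imKO naive 2 (0.121 and 0.0589), and that of H2-K1 also without 7 (0.0562), 9 (0.0527) or naive 3 (0.0813).

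In WT cisplatin AIBP, H2-K1 stood at 799 and 667 CPM against 1123, 1291 and 1153 CPM in WT naive (-0.70 ± 0.19, adjusted p = 0.0942; 0.0096 by DESeq2), and H2-D1 at 1701 and 1579.9 CPM against 2059.9, 2339.8 and 1951 CPM (-0.37 ± 0.17, adjusted p = 0.335). No member passed in WT, where 1.25% of genes did (1.06% higher), and 4 of 5 class I genes had both treated samples below all naive ones, as 16.3% of genes did. B2m stood at 1086, 672 and 849 CPM in the samples labelled ABC-imKO cisplatin AIBP against 1385, 1706 and 1139 CPM in ABC-imKO naive (-0.70 ± 0.22, adjusted p = 0.123; 0.0263 by DESeq2). Cd74 was 0.89 ± 0.48 above ABC-imKO naive (log2, adjusted p = 0.37) and 1.32 ± 0.53 above WT naive in WT (adjusted p = 0.275), with no overlap in either genotype, as 10.1% of genes in ABC-imKO and 17% in WT.

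Between genotypes no member passed in naive mice, after cisplatin with saline or after cisplatin with AIBP, where 0.00489%, 0.044% and 0.0% of genes did (for the last, 1299 at an unadjusted p under 0.05 and 195 by DESeq2). In naive mice all 5 class I values were higher in ABC-imKO, by 0.12 to 0.69 on the log2 scale. B2m had the widest gap, with 1385, 1706 and 1139 CPM in ABC-imKO naive against 865, 954 and 795 CPM in WT naive (0.69 ± 0.22, adjusted p = 0.789), and 1086, 672 and 849 CPM in the samples labelled ABC-imKO cisplatin AIBP against 549 and 633 CPM in WT cisplatin AIBP (0.56 ± 0.25, adjusted p = 0.732). H2-D1 in naive mice differed by 0.30 ± 0.15 (adjusted p = 0.789). For 5 of 10 members (B2m, H2-D1, Tap1, H2-Aa and Ciita) every ABC-imKO naive sample lay above every WT naive one, as for 5.49% of all genes tested, and no member lay wholly lower, as 4.14% did. For Ciita this rested on few reads, with 1, 1 and 36 counts in ABC-imKO naive against 0, 0 and 1 in WT naive. For H2-Aa it rested on the libraries of technical replicate 1. B2m also lay wholly higher with AIBP, as 10.8% of genes did.
H2-Aa stood at 7.72, 2.3 and 5.13 CPM in ABC-imKO naive against 0.0202, 0.0178 and 0.35 CPM in WT naive (5.22 ± 2.11, adjusted p = 0.789), and without the libraries of technical replicate 1 that value turned to -0.46. After cisplatin and saline Cd74 was lower in ABC-imKO by -1.01 ± 0.48 (adjusted p = 0.553) and H2-Aa by -4.16 ± 1.94 (adjusted p = 0.553); without WT cisplatin saline 5 and 6 both signs turned, to 0.96 and 5.34. No member stood apart between these groups, whereas 6.1% of genes lay wholly higher and 6.4% wholly lower. Of all genes tested, 0.0195% passed as higher and 0.0244% as lower in ABC-imKO.

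Among 19 other genes of class I presentation, Psme2 rose after cisplatin and saline in both genotypes. In WT 3 of 19 rose and 1 fell, where 1.95% of all genes tested rose and 0.953% fell. Psme1 and Psme2, the subunits of the proteasome activator PA28, and Calr, the chaperone calreticulin, rose (0.88 ± 0.15, adjusted p = 0.00781; 0.76 ± 0.18, 0.037; 1.21 ± 0.19, 0.00479), and H2-M3, a heavy chain that presents formylated peptides, fell (-0.84 ± 0.15, 0.0095). In ABC-imKO 2 of 19 rose and 2 fell, where 2.42% of all genes rose and 1.99% fell. Psme2 (0.78 ± 0.18, adjusted p = 0.0237) and the peptide-trimming enzyme Erap1 (1.04 ± 0.28, 0.0481) rose, and the immunoproteasome subunit Psmb9 (-0.94 ± 0.21, 0.0208) and the Qa-1 heavy chain H2-T23 (-1.30 ± 0.31, 0.029) fell. The median of the 19 was -0.34 in ABC-imKO and -0.23 in WT.
In the cisplatin AIBP groups against naive, Calr, Psme1 and Psme2 rose in both genotypes, 3 of 19 each, and none fell, where 1.81% of all genes rose in the samples labelled ABC-imKO cisplatin AIBP and 1.06% in WT cisplatin AIBP. Calr stood at 822, 754 and 674 CPM in the samples labelled ABC-imKO cisplatin AIBP against 512, 456 and 330.5 CPM in ABC-imKO naive, and at 679 and 641 CPM in WT cisplatin AIBP against 306, 240.0 and 337 CPM in WT naive.

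Among 13 tested genes of class II processing, Ctsl, a lysosomal protease that trims CD74, and Ifi30, the lysosomal thiol reductase GILT, rose after cisplatin and saline in both genotypes. Ifi30 stood at 309, 388 and 275 CPM in ABC-imKO cisplatin saline against 169, 169.8 and 93.6 CPM in ABC-imKO naive (1.17 ± 0.23, adjusted p = 0.0105), and at 296, 198 and 284 CPM in WT cisplatin saline against 70.2, 76.5 and 92.4 CPM in WT naive (1.7 ± 0.24, 0.00244). Ctsl had log2 fold changes of 0.77 ± 0.18 (adjusted p = 0.023) in ABC-imKO and 0.74 ± 0.18 (0.0378) in WT. WT cisplatin saline 4 had the highest Ifi30 of its group while its class II genes were within or near the naive range.
H2-Oa and H2-Ob encode the chains of H2-O, which holds back H2-DM, the editor of class II peptides. H2-Oa fell in ABC-imKO (-1.85 ± 0.46, adjusted p = 0.032; WT -1.63 ± 0.45, 0.0712), and H2-Ob fell in WT (-1.88 ± 0.45, 0.0378; ABC-imKO -1.28 ± 0.44, 0.131). H2-DMa, at 746 to 1199 CPM over all 17 samples, had differences of 0.15 ± 0.18 in ABC-imKO and 0.03 ± 0.18 in WT (adjusted p = 0.732 and 0.96). In all, 2 of 13 rose and 1 fell in each genotype, where 2.42% of all genes rose and 1.99% fell in ABC-imKO and 1.95% rose and 0.953% fell in WT. Against naive, Ifi30 rose in both cisplatin AIBP groups, and H2-Oa and H2-Ob fell in the samples labelled ABC-imKO cisplatin AIBP (-1.82 ± 0.46, adjusted p = 0.0482; -2.02 ± 0.45, 0.029).

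Of 16 genes for MHC transcription, 1 fell in each genotype after cisplatin and saline and none rose, where 1.99% of all genes fell in ABC-imKO and 0.953% in WT. In WT it was the interferon regulatory factor Irf2 (-0.92 ± 0.20, adjusted p = 0.0221; ABC-imKO -0.64 ± 0.20, 0.0892), and in ABC-imKO the macrophage factor Irf8 (-0.82 ± 0.16, 0.0107; WT -0.55 ± 0.16, 0.0943). Of the 16 values, 14 were negative in ABC-imKO (median -0.74, against -0.04 for all genes tested) and 13 in WT (median -0.47, against -0.01). Nlrc5, the class I transactivator, had 0.121 to 18.1 CPM over the 17 samples.

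The 5 genes whose pattern over the 17 samples was most like that of H2-K1, by the root mean square difference of centred log2 CPM among 8214 genes, were Prkcd (0.18), Unc93b1 (0.19), Tnfrsf21 (0.20), Mgat1 (0.21) and Usp2 (0.21). By the same measure H2-D1 (0.16) was nearer than any of them, Tapbp stood at 0.19, B2m at 0.30 and Tap1 at 0.53, and the median of the 8214 was 0.58. The 5 most like Cd74 were C5ar1 (0.51), Psat1 (0.56), Cops6 (0.56), Ctsc (0.56) and Psmc1 (0.57). All were nearer than H2-Ab1 (0.76), Ciita (1.35), H2-Eb1 (2.15) and H2-Aa (2.37), and the median of the 8214 was 1.05. The measure is centred but not scaled, so a gene with wider swings than Cd74 can score as unlike it even where both move the same way. These are descriptions over samples that share their libraries and group differences.

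Some counts may be shared with other genes. Of all 50-base windows in annotated transcripts, 12.8% of those of H2-D1, 9.63% of H2-K1 and 23.2% of Tapbp also occur in transcripts of another gene, among them other class I genes for the heavy chains, and 0% of those of B2m, H2-Ab1, H2-Eb1 and Cd74 do. Without a stated strand setting, reads of Tap1 and its antisense neighbour Psmb9 cannot be told apart where they overlap. The same holds for Ciita and Dexi and for Tapbp and Gm19412 (20.3% of Tapbp windows). B2m and Patl2, and H2-Eb1 and Gm20513, overlap as genes on opposite strands, but their annotated transcripts share no 50-base window on either strand.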

How the data were processed

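Libraries were made by low-input oligo(dT) full-length amplification of RNA from sorted microglia, per the labels' protocols. Reads were aligned to GRCm38 with STAR 2.6.0a after FastQC 0.11.17 and MultiQC 1.7, per the submitters' processing notes, and neither counting tool nor strand setting is named there. Deposited by the authors were raw counts per gene and run (102 runs, 51 libraries) and a normalized signal table for 18856 genes that equals the raw counts divided by 1 size factor per run (0.437 to 1.62). Runs were summed per numbered sample.

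CPM used TMM-scaled library sizes. Counts were tested with edgeR 4.0.16 (TMM, filterByExpr, group means over 17 samples, quasi-likelihood test, Benjamini-Hochberg adjustment over 20461 genes, threshold 0.05), and scripts were tested on simulated data. Alternatives used DESeq2 1.42.0, limma 3.58.1 with libraries as units, other filters and left-out samples or technical replicates. The limma fit found a correlation of 0.0886 between libraries of a sample, so it counts them nearly as separate samples. Named genes were the 10 members, the list genes that passed, and the 5 most like H2-K1 and Cd74. The members and lists were chosen with earlier results of these data known. Promoters came from RefSeq for 7 of the 10 members.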

Additional observations from a re-analysis of the deposited data

How the results depend on the processing

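Counts below are of the 10 members passing after cisplatin and saline against naive unless stated. No count is given without WT cisplatin saline 5 and 6, which leaves 1 sample in that group. In WT (2) they were 5 by DESeq2, 5 with libraries as units, 0 with the 2 groups fitted alone, 1 without technical replicate 2 and 1 without technical replicate 3, and 0 to 5 leaving out 1 sample. In ABC-imKO (2) they were 4 by DESeq2, with genes at 10 CPM or more and with libraries as units, 1 with no filter and without technical replicate 1, 0 with the groups alone and without technical replicate 2, and 0 to 3 leaving out 1 sample. For AIBP against naive, WT (0) had 2 by DESeq2 and 1 with genes at 10 CPM or more or libraries as units, and the samples labelled ABC-imKO cisplatin AIBP (2) had 4 with libraries as units, 1 without technical replicate 2, 0 with the groups alone or without technical replicate 1, and 0 to 2 leaving out 1 sample. The cisplatin interaction (0) had 1 by DESeq2. Without WT cisplatin saline 5 and 6 these log2 values reversed: H2-Aa -1.12, H2-Ab1 -0.56 and H2-Eb1 -0.36 in WT, Cd74 0.86 for WT AIBP minus saline, Cd74 0.96 and H2-Aa 5.34 for ABC-imKO minus WT after saline, Cd74 0.70 and H2-Aa 0.0908 in the cisplatin interaction and Cd74 -1.14 in the AIBP interaction. Without technical replicate 1 H2-Aa reversed to 4.87 in ABC-imKO saline minus naive and -0.46 in naive ABC-imKO minus WT, and without technical replicate 3 H2-Ab1 to -0.47 in ABC-imKO saline minus naive and Cd74 to 0.0168 in ABC-imKO AIBP minus saline. Leaving out 1 sample, H2-Ab1 in ABC-imKO ran from -0.0719 to 0.87. The cause was not tested. Genes called ran from 526 to 2356 in ABC-imKO (903) and up to 1840 in WT (595), and leaving out 1 sample from 366 to 1025 and from 149 to 853. Expression deviations of same-numbered WT and ABC-imKO samples had r of -0.198 to 0.199, which cannot show whether the numbers mark a pairing. With sample numbers as a replicate block 0 members passed between genotypes, with Cd74 at -0.71 after saline.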
